A study of Mus musculus with 3 samples.

Results

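GLI3 binding was described at 9 genes of retinoic acid signalling and of the Meis and Pbx families in mouse forelimb buds. The genes were Aldh1a2, Cyp26a1, Cyp26b1, Rara, Rarb, Rarg, Meis1, Meis2 and Pbx3. A peak belonged to a gene if its summit lay within 100 kb of any annotated transcription start site (TSS) of that gene or inside the gene body. Of 17149 listed peaks, 56 belonged to these genes, and 0 of them were shared between genes. Peaks with a false discovery rate (FDR) under 0.05 are called GLI binding regions (GBRs), and 22 of 7282 GBRs lay at these genes.

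The study precipitated GLI3, through which Hedgehog (HH) signals reach target genes, with chromatin immunoprecipitation and sequencing (ChIP-seq). Forelimb buds came from E10.5 embryos with 32 to 35 somites. There were 2 ChIP libraries, each from 2 litters, and 1 input library of chromatin without immunoprecipitation. Peaks of both ChIP replicates were reported together, as 1 list. All embryos had a mixed strain background. The series describes a Gli3 allele with a FLAG tag at its own locus, while the genotype label of all 3 libraries reads wild type. The study used an antibody against FLAG, so the tagged protein was precipitated. Libraries received 15 cycles of amplification. The list holds no value per library, so no value below has a replicate error and no difference between samples could be tested. The study states a lower bound for sequencing depth and the list holds no read totals, so how deeply each library was read is known only as a minimum. The material was whole limb buds, in which the number of cells bound and the binding per cell cannot be told apart.

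Retinoic acid is made from vitamin A by retinaldehyde dehydrogenases, broken down by CYP26 enzymes and sensed by nuclear retinoic acid receptors, which bind DNA together with RXR partners. In the limb bud, the MEIS homeodomain proteins mark the proximal part, the one nearest the body, and retinoic acid from the trunk can maintain their expression. CYP26B1 clears retinoic acid from the distal bud. MEIS and PBX proteins belong to the TALE class of homeodomain factors and bind DNA as partners of each other and of HOX proteins.

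Sequences were taken around the summit of the highest-ranked GBR of each gene that had one, because these are the positions the GLI3 signal points to. Each covers 60 bases on either side of the summit, on the mm10 plus strand. None of the motifs searched below occurs inside them, so there are no capitals. They lie at chr6:84583907-84584027 (Cyp26b1), chr11:98942282-98942402 (Rara), chr14:16555027-16555147 (Rarb), chr15:102247957-102248077 (Rarg) and chr2:115869182-115869302 (Meis2).
Cyp26b1: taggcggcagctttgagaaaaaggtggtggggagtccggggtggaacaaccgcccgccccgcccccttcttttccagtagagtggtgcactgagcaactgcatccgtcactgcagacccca
Rara: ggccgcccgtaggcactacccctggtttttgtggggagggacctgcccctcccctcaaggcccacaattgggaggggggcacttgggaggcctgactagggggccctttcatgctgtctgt
Rarb: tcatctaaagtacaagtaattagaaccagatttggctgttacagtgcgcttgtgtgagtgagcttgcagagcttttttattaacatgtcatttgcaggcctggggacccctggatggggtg
Rarg: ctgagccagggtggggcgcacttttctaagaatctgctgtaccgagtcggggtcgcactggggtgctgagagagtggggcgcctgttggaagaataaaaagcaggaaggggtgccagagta
Meis2: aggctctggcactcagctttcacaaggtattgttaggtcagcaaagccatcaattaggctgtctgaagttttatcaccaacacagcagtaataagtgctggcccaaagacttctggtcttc

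Across the 9 loci, 22 of 56 listed peaks were GBRs (39.3%, 95% Wilson interval 27.6 to 52.4), against 42.5% of all listed peaks. The 2 shares were close, and the interval covers counting error over peaks only. Of the 9 genes, 8 had a listed peak and 5 had a GBR. Among 21938 protein-coding genes treated with the same rule, 72.3% had a listed peak and 54.2% had a GBR. The median number of GBRs per gene was 1 here and 1 over all protein-coding genes, whose quartiles were 0 and 2. The median number of listed peaks was 5 here and 2 over all protein-coding genes. Windows were not of equal size, as those of the 9 genes ran from 200 to 488 kb. The median window over all protein-coding genes was 203 kb. The 9 genes differed widely from each other. The 3 receptor genes held 17 GBRs, the 2 breakdown enzymes 3, the 3 TALE genes 2 and the synthesis enzyme 0. Counted instead by the nearest coding TSS, with no limit on distance, the receptor genes had 10, the breakdown enzymes 4, the TALE genes 5 and the synthesis enzyme 0.

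**Figure D1:**
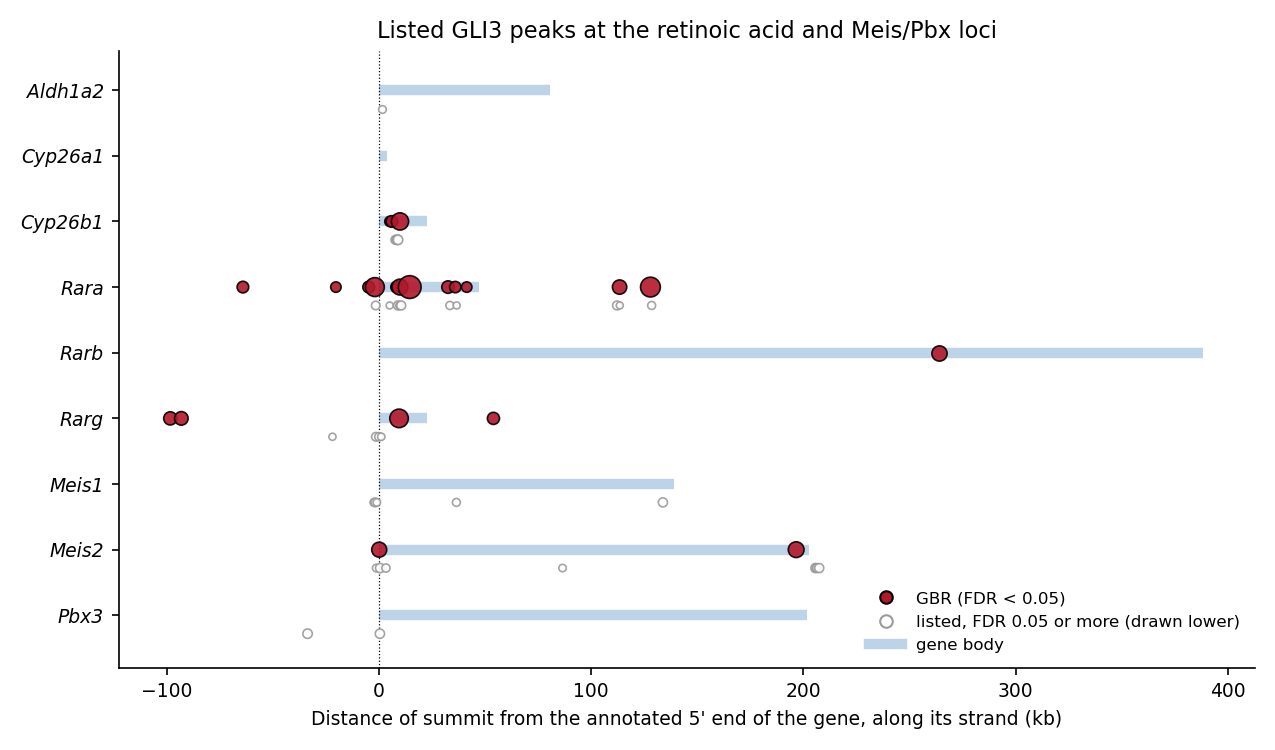
Position of each listed peak summit along the 9 genes, in kb from the annotated 5′ end of the gene and along its strand. Red circles are GBRs, white circles drawn lower are listed peaks at an FDR of 0.05 or more, circle area grows with the log2 fold enrichment, and blue bars are gene bodies. The 12 GBRs of Rara stand against 0 at Aldh1a2, Cyp26a1, Meis1 and Pbx3.

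Enrichment is given as the highest log2 ratio of ChIP to input that any window of a peak reached, called log2 fold enrichment here. Over the 22 GBRs its median was 2.82 (quartiles 2.59 and 3.13), beside 2.69 (quartiles 2.47 and 3.06) over all 7282 GBRs. The weakest of the 22 reached 2.39 and the strongest 3.97. In the list, the 1000 highest ranks make up 5.83% of peaks, and 4 of the 56 peaks (7.14%) were among them. These 4 lay at Rara (ranks 267, 602 and 738) and Rarg (rank 810). The median length of the 22 GBRs was 600 bp (95% interval from order statistics 400 to 750, over peaks), which reaches the median of 400 bp over all GBRs. The FDR threshold fell between a log2 fold enrichment of 2.3139 and 2.3142 in the whole list. At these loci, the peak nearest to it from above was at Cyp26b1 (log2 2.39, FDR 0.020958) and the nearest from below was also at Cyp26b1 (log2 2.28, FDR 0.070419).

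**Figure D2:**
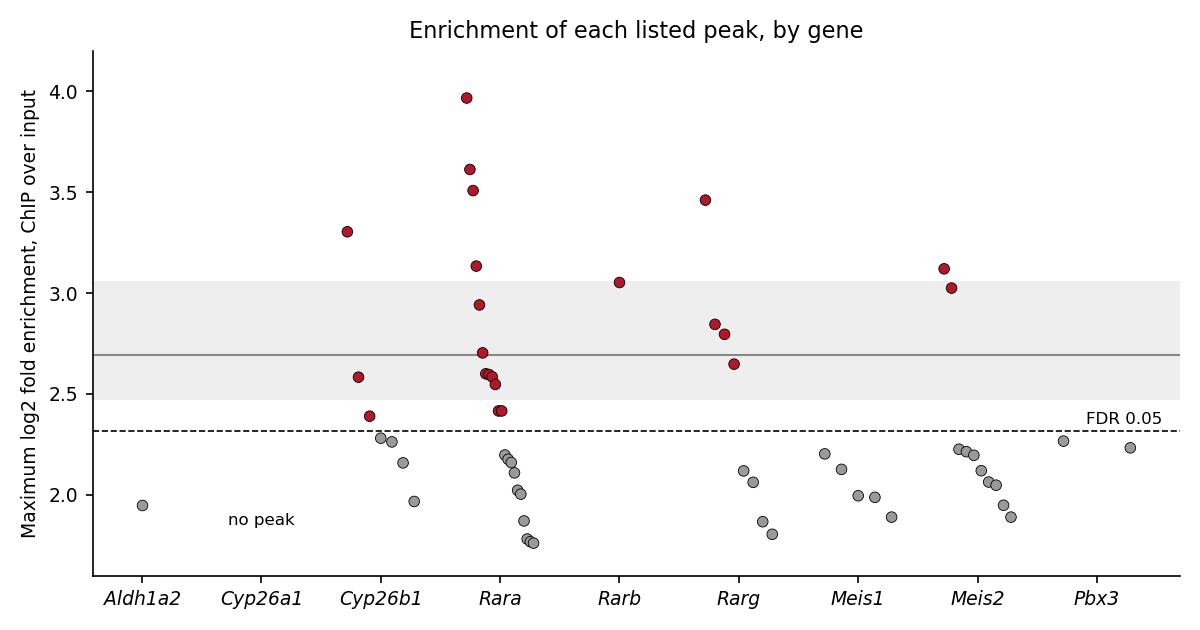
Log2 fold enrichment, the maximum over windows, of each of the 56 listed peaks, ordered by rank within each gene (red, GBRs; grey, other listed peaks). The dashed line is the lowest value of any GBR (2.31), and the grey line and band are the median (2.69) and quartiles of all 7282 GBRs; Rara spans 1.76 to 3.97.

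Aldh1a2 (chr9:71215789-71296243, plus strand) encodes the main retinaldehyde dehydrogenase of the early embryo, which makes retinoic acid. It had a single listed peak and 0 GBRs. This peak covered 100 bp at chr9:71217150-71217249, in intron 1 of 13 and 1363 bp past the TSS. Its log2 fold enrichment was 1.95 and its FDR 0.727328, far from the threshold. The nearest GBR lay 681 kb from the TSS, close to Tcf12, a basic helix-loop-helix gene, with a log2 fold enrichment of 2.54. No GLI3 binding above the threshold was thus detected near the gene that makes the ligand.

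The CYP26 enzymes oxidise retinoic acid and so end its signal. Cyp26a1 (chr19:37697798-37701536, plus strand) had 0 listed peaks in a window of 200 kb. The nearest listed peak lay 209 kb from a TSS, and the nearest GBR, close to the myoferlin gene Myof, lay at 210 kb with a log2 fold enrichment of 3.26. Its neighbour Cyp26c1, which encodes another enzyme of the family, had 0 listed peaks in a window that is mostly the same sequence.

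Cyp26b1 (chr6:84571414-84593908, minus strand) had 7 listed peaks, and all 7 lay inside the gene body, with summits in a stretch of 4760 bp over introns 1 to 3. The strongest was a GBR of 950 bp in intron 3 of 6 (chr6:84583500-84584449), with a log2 fold enrichment of 3.30 (9.87-fold), an FDR listed as 0 and a −log10 Poisson p of 31.4. Its summit was 3713 bp downstream of the nearest TSS of the gene. The sequence around it is given above. The other 2 GBRs sat at internal start sites. One at chr6:84587700-84588049 (log2 2.58, FDR 0.007039) had its summit 102 bp before a TSS, and one at chr6:84588300-84589049 (log2 2.39, FDR 0.020958) had its summit 89 bp before another.

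Between these GBRs lay the 4 other listed peaks of Cyp26b1, with log2 fold enrichments of 2.28, 2.26, 2.16 and 1.97. The 2 strongest of them had FDRs of 0.070419 and 0.070924. Cyp26b1 held 3 GBRs, and 18.2% of protein-coding genes held at least as many in their windows. No other protein-coding gene has a TSS in its window. A further GBR whose nearest coding TSS is that of Cyp26b1 lay outside the window, 156 kb past that TSS, with a log2 fold enrichment of 2.50. Counted by nearest coding TSS, Cyp26b1 thus had 4 GBRs, and 1.31% of genes had at least as many.

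The retinoic acid receptors are nuclear receptors that switch target genes on when retinoic acid is bound and hold them off without it. Rara (chr11:98927818-98974942, plus strand), Rarb (chr14:16430839-16819156, minus strand) and Rarg (chr15:102234938-102257517, minus strand) had 12, 1 and 4 GBRs. Their windows covered 233, 488 and 214 kb, so the numbers per megabase were 51.6, 2.05 and 18.7. The order by density was the same as the order by count.

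Rara held 22 listed peaks and 12 GBRs, which is 54.5% of the GBRs of all 9 genes. A count of 12 or more was found at 57 protein-coding genes (0.26%). The window also holds the start sites of 6 other protein-coding genes, and 4 of the 12 GBRs were nearer to one of those. By nearest coding TSS, Rara had 8 GBRs, and 38 genes (0.173%) had at least as many. Without the Rara locus, 10 GBRs remained over the other genes, with a median log2 fold enrichment of 2.93.

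**Figure D3:**
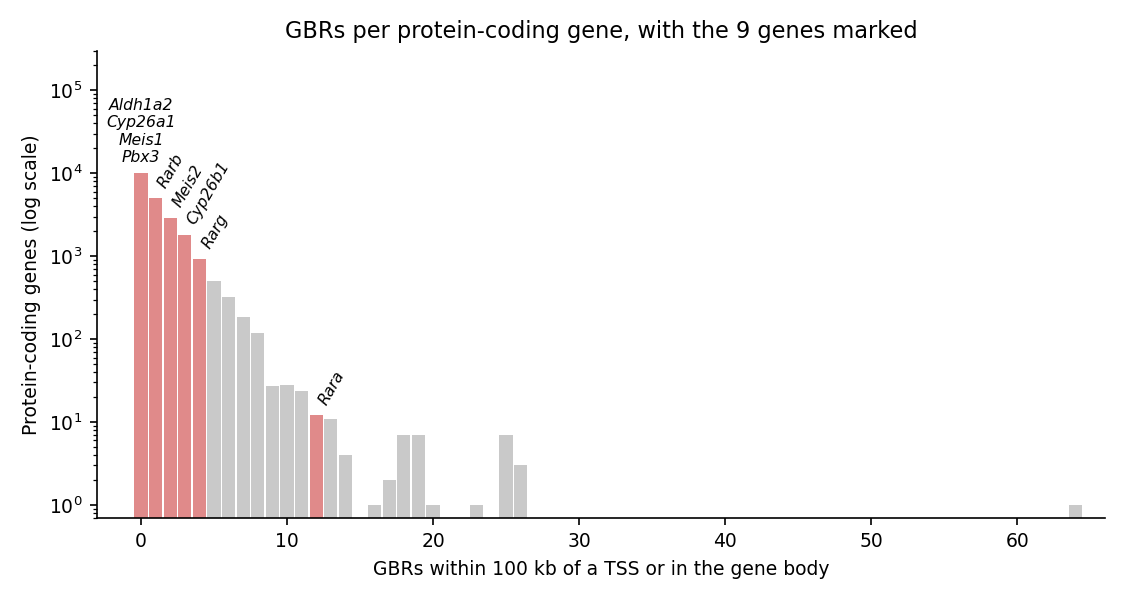
Number of protein-coding genes (log scale) by the number of GBRs within 100 kb of a TSS or in the gene body, with bars that hold one of the 9 genes in red. Most of the 9 genes sit at 0 to 4 GBRs and Rara sits at 12, in a tail that reaches 64.

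The strongest peak of all 9 loci lay in intron 1 of 9 of Rara, 2630 bp past an annotated TSS. This GBR covered 1050 bp at chr11:98941850-98942899 and reached a log2 fold enrichment of 3.97 (15.6-fold), an FDR listed as 0 and a −log10 Poisson p of 49.3. It had rank 267 of the list. The next strongest in or near the gene was a GBR 1901 bp before the first TSS (chr11:98925450-98926149), with a log2 fold enrichment of 3.51 (11.4-fold). Another, at chr11:98937550-98937949, had its summit 6 bp before an internal start site (log2 3.13), and one at chr11:98960200-98960699 had its summit 15 bp before the most downstream start site (log2 2.70).

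The other 4 GBRs nearest to Rara were weaker. One lay 4801 bp before the gene, in the 3′ UTR of the replication licensing gene Cdc6 (log2 2.60). Another was 1506 bp before the internal start site (log2 2.60), and the remaining pair lay 3385 bp and 8795 bp past the most downstream start site, in introns 3 and 5 of 9 (log2 2.55 and 2.42). The 7 annotated start sites of Rara cover 32594 bp, and GBRs lay before the first, near the internal ones and at and past the last.

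**Figure D4:**
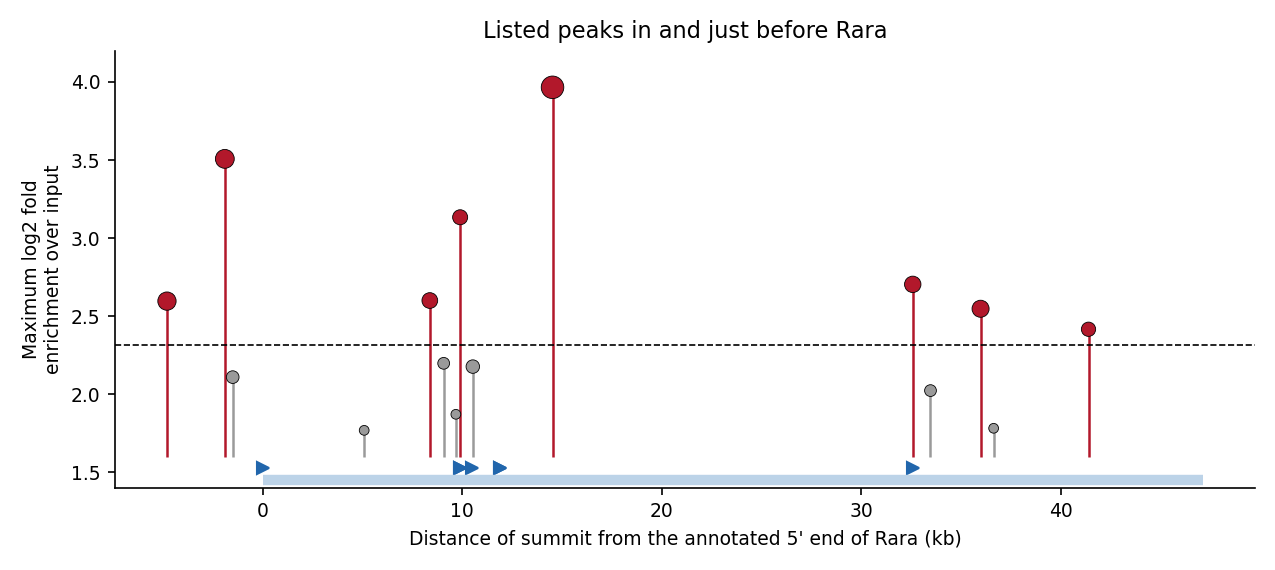
Listed peaks in and just before Rara, by distance of the summit from the annotated 5′ end (kb) and log2 fold enrichment; red are GBRs, grey are other listed peaks, dot area grows with peak length, triangles mark annotated start sites and the bar the gene body. The tallest peak, at 3.97, stands in intron 1, between the internal start sites near 10 kb and the most downstream one.

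The 4 GBRs of the Rara window that were nearest to other genes lay at both ends. Upstream, one was in the 5′ UTR of Wipf2, a regulator of actin (log2 2.58), and one was 234 bp before Cdc6 (log2 2.42). Downstream, one was 22 bp before Igfbp4, which encodes a binding protein of insulin-like growth factors (log2 2.94). The last, at chr11:99055250-99056149, was 8446 bp past another Igfbp4 TSS, which is further downstream. This GBR reached a log2 fold enrichment of 3.61 (12.2-fold), the second highest of the 56 peaks. It lay 95345 bp from a Rara TSS, near the limit of 100 kb. The next GBR outside the limit was 111490 bp from a Rara TSS, close to the tensin gene Tns4, with a log2 fold enrichment of 3.45. Which gene any of these peaks acts on is not a measurement of this assay.

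Rarb had 1 listed peak, and it was a GBR. It covered 700 bp at chr14:16554600-16555299, with a log2 fold enrichment of 3.06 (8.32-fold), an FDR listed as 0 and a −log10 Poisson p of 29.4. The summit was in intron 1 of 7 of the coding transcript, 264069 bp from the annotated 5′ end of the gene and 20456 bp past the nearest coding TSS. It stood alone, since the nearest other listed summit was 466100 bp away. The next nearest GBR to a Rarb TSS lay 1420 kb from it. The 250 bp on either side of its summit had a GC content of 50.5%, beside a median of 50.3% over all GBRs outside promoters. At least 1 GBR was found at 54.2% of protein-coding genes, so a count of 1 is common. By nearest coding TSS the count was also 1, reached by 21.5% of genes.

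Rarg had 8 listed peaks and 4 GBRs in a window that holds the start sites of 11 other protein-coding genes. A count of 4 or more was found at 9.92% of genes. With a limit of 50 kb the count was 2, and by nearest coding TSS it was 1, which 21.5% of genes reached. One GBR was nearest to Rarg itself, and it was the longest of the 22, covering 2700 bp at chr15:102247000-102249699. Its log2 fold enrichment was 3.46 (11.0-fold) and its −log10 Poisson p 37.8. The summit lay in intron 3 of 9, 1517 bp before the TSS of a shorter coding transcript. At the first start site of Rarg, a listed peak of 150 bp had a log2 fold enrichment of 2.06 and an FDR of 0.438195, and so was not a GBR.

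The other 3 GBRs of the Rarg window lay near neighbours. One was in a coding exon of Aaas, a nuclear pore gene, 167 bp past its TSS (log2 2.84). One was 5033 bp before Aaas (log2 2.80), 98275 bp from a Rarg TSS and the last inside the limit. Another was 101 bp before the zinc finger gene Zfp740 (log2 2.65). The next GBR beyond the limit lay 113460 bp from a Rarg TSS, close to the osteoblast factor gene Sp7 (log2 2.98).

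Meis1 (chr11:18879817-19018985, minus strand) and Meis2 (chr2:115863064-116065839, minus strand) encode related TALE factors of the proximal limb, and they differed in the list. Meis1 had 5 listed peaks and 0 GBRs, with log2 fold enrichments between 1.89 and 2.20 and a lowest FDR of 0.132792. Of these peaks, 3 lay 977, 1647 and 2297 bp before the 5′ end, one in intron 7 of 11 and one in the 3′ UTR. The nearest GBR lay 253 kb from a Meis1 TSS, past the 3′ end (log2 2.89). Counted by nearest coding TSS, Meis1 had 3 GBRs, at 260.0, 265.0 and 306.0 kb past that TSS (log2 2.89, 2.32 and 2.32), and 2.56% of genes had at least as many. Meis1 thus had no GBR by the 100 kb rule and 3 by the rule of the nearest gene.

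Meis2 had 10 listed peaks and 2 GBRs, a count reached by 31.4% of genes. By nearest coding TSS it also had 2, reached by 5.88% of genes. The stronger GBR was not at the promoter but near the far end of the gene, in intron 9 of 11 and 196597 bp from the 5′ end. It covered 1000 bp at chr2:115868950-115869949 and had a log2 fold enrichment of 3.12 (8.69-fold), an FDR listed as 0 and a −log10 Poisson p of 35.0. Its summit was 375 bp before the TSS of an annotated non-coding transcript of the gene. By Poisson p it ranked 997 in the list, above its rank of 1590 by the T statistic. The second GBR was in the 5′ UTR, 147 bp past the 5′ end of the gene (chr2:116065500-116065899, log2 3.02, 8.14-fold).

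A group of 4 listed peaks lay past the 3′ end of Meis2, with summits in a stretch of 1790 bp. Their log2 fold enrichments ran from 2.06 to 2.21, and 0 were GBRs. One of these had a −log10 Poisson p of 15.4, which ranked 4230 in the list although its T rank was 10424. Of the 34 listed peaks at the 9 genes that were not GBRs, 5 had a Poisson rank within the first 7282, beside 11.7% of all such peaks in the list.

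Pbx3 (chr2:34171457-34373142, minus strand) encodes a TALE partner of the MEIS proteins. It had 2 listed peaks and 0 GBRs. One peak, at chr2:34372550-34372799, had its summit 480 bp inside the annotated 5′ end (log2 2.23, FDR 0.132755). The other lay 141 bp before Mapkap1, which encodes a subunit of an mTOR complex, and came close to the threshold (log2 2.27, FDR 0.070419). The nearest GBR was 184 kb from a Pbx3 TSS (log2 2.97), close to Mvb12b.

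At promoters, defined as 2 kb before to 1 kb after a coding TSS, were 13 of the 22 GBRs (59.1%, interval 38.7 to 76.7), beside 52.6% of all GBRs. Of these 13, 8 overlapped the promoter of one of the 9 genes and 5 overlapped that of a neighbour alone. The 9 GBRs outside promoters had a median log2 fold enrichment of 3.06, and the 13 at promoters 2.70, beside 2.69 and 2.70 over all GBRs of each kind. The peaks also lay close together. Of the 56 listed peaks, 36 (64.3%) had another listed summit within 2 kb, beside 38.5% of all listed peaks. All 7 peaks of Cyp26b1 were among them, as were most peaks of Rara, in groups of 2, 3 and 5. Cyp26b1 and Rara thus supplied most of the 36, whereas the peaks of Rarb, Aldh1a2 and Pbx3 stood alone.

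The sequence around each summit was searched on both strands for letters known to be bound by these factors. The GLI consensus GACCACCCA was allowed 1 mismatch, and 250 bp on either side of each summit were searched. A match was found at 2 of the 22 GBRs (9.09%, interval 2.53 to 27.8), beside 20.8% of all GBRs. In windows of the same size 2 kb to either side, 1 of 44 (2.27%) held a match at the 9 genes and 10.7% over all GBRs. Over the whole length of the peaks, the shares were 2 of 22 and 19.9%. Within 100 bp of the summit they were closer, at 2 of 22 (9.09%) and 11.6%. The exact consensus was found at 0 of 22 GBRs, beside 2.84% of all GBRs. With 2 mismatches allowed, 19 of 22 GBRs (86.4%) and 82.7% of all GBRs held a match. Among the 34 listed peaks that were not GBRs, 5 had a match within 250 bp of the summit (14.7%), beside 15.7% of all such peaks. Over their whole length, 2 of 34 held a match (5.88%), beside 7.48%.

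The GLI matches are shown because they are the letters at these loci most like the consensus of the factor that was precipitated. Each runs 5′ to 3′ on the strand of the match, in mm10, with the match in capitals and 10 bases on either side. A token such as C7A gives the consensus base, the position counted from 1 at the 5′ end of the consensus and the base in the match. The first 2 are in GBRs, namely the strongest Rara peak (C7A, minus strand, chr11:98942406-98942434, 78 bp from the summit) and the Rarg window peak before Aaas (A5C, minus strand, chr15:102355774-102355802, 4 bp from the summit). The Rara match runs into a CA repeat. The others are in the stretches searched around the summits of listed peaks that were not GBRs. One, past Igfbp4 in the Rara window, is the only exact consensus found around the 56 peaks (plus strand, chr11:99056209-99056237). It lies outside its peak. Another, in intron 2 of Rarg, runs past the end of its peak (C8A, plus strand, chr15:102256435-102256463). A further match is in the group past the 3′ end of Meis2 (A5G, plus strand, chr2:115859392-115859420, within reach of 2 summits). The last is in the Pbx3 window peak at Mapkap1 (G1A, plus strand, chr2:34406718-34406746, 5 bp from the summit).
Rara intron 1: agtcgtcagaGACCACACAcacacacaca
Rarg window near Aaas: tggttcacaaGACCCCCCAagggctggcc
Rara window near Igfbp4: tcttcctaaaGACCACCCAagccaagggg
Rarg intron 2: ccatccccatGACCACCAActaagcatat
Meis2 3′ side: attgataaatGACCGCCCAggaacggccc
Pbx3 window near Mapkap1: acgcatgcgcAACCACCCAccagttcccg

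The peak nearest to the exact GLI consensus was itself weak, with a log2 fold enrichment of 2.00 and an FDR of 0.460751. The GBR directly beside that peak, at 3.61, held no match in its own window. Of the nearest GBRs outside each window, those for Cyp26a1, Rara, Rarb, Rarg and Pbx3 held a GLI match. Those for Aldh1a2, Cyp26b1, Meis1 and Meis2 did not. RefSeq promoters (250 bases before to 50 after a start, mm10) were searched in the same way. In the 12 entries for 8 of the 9 genes, 0 held a GLI match, beside 6.74% of 32851 promoters. Pbx3 had no entry.

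Retinoic acid receptors are known to bind direct repeats, and MEIS and PBX their own short motifs, so these were searched too. The direct repeat of AGGTCA with 5 bases between both copies (DR5), with up to 2 mismatches in the repeat, was found at 2 of 22 GBRs (9.09%, interval 2.53 to 27.8), beside 3.94% of all GBRs. In the windows 2 kb away, the shares were 4.55% and 5.11%. One was the intronic GBR of Meis2, with 1 mismatch (A1G, plus strand, chr2:115869326-115869362, 102 bp from the summit). The other was the GBR before Cdc6 in the Rara window (T4A and A17T, minus strand, chr11:98907711-98907747). Both are shown with the repeat in capitals, since each is an inexact match to that repeat near a GLI3 summit.
Meis2 intron 9: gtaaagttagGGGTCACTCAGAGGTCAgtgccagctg
Rara window near Cdc6: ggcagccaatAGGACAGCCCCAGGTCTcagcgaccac

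The MEIS core TGACAG was found at 4 of 22 GBRs (18.2%, interval 7.31 to 38.5), beside 25.4% of all GBRs and 28.4% of the windows 2 kb from them. The 4 were the strongest GBRs of Cyp26b1, Rara and Rarg and the intron 5 GBR of Rara. The composite PBX and MEIS motif of 10 letters, which contains TGACAG, is spelled by the capitals of the Meis2 sequence printed last and was allowed 1 mismatch. It was found at 0 of 22 GBRs beside 2.93% of all GBRs. The PBX and HOX motif TGATTTAT was found at 0 of 22 beside 2.72%. A count of 0 of 22 has an interval of 0 to 14.9%, which includes both shares.

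The composite motif did occur at 2 listed peaks that were not GBRs, both near the 5′ end of a TALE gene. This is 2 of 34 such peaks (5.88%, interval 1.63 to 19.1), beside 3.72% of all listed peaks that were not GBRs. An exact copy lay 7 bp from the summit of a peak in the 5′ UTR of Meis2 (minus strand, chr2:116065254-116065283, log2 2.23, FDR 0.132755), and a copy with 1 mismatch lay in the peak at the 5′ end of Pbx3 (T1G, plus strand, chr2:34372678-34372707). They are shown with the motif in capitals because the genes encode the factors that this motif is known to bind. A match of letters is a description and not a measured site.
Pbx3 5′ end: ctcggctgagGGATTGACAGgctgccagtg
Meis2 5′ UTR: ttccgggcttTGATTGACAGctggagtggc

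**Figure D5:**
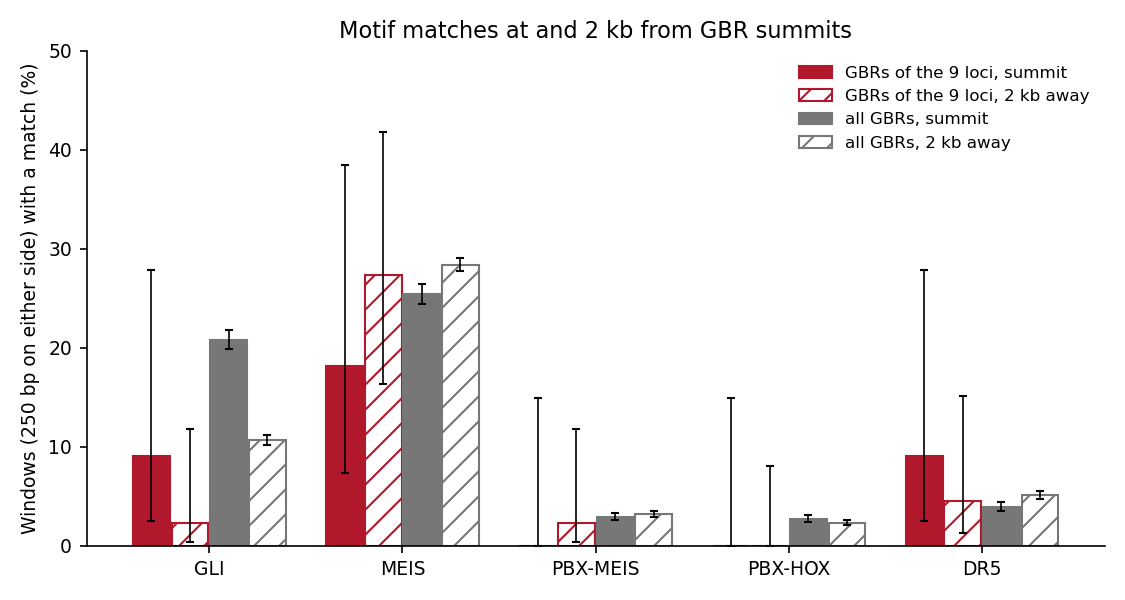
Share of windows of 250 bp on either side (%) with a match to each motif, for the 22 GBRs of the 9 loci (red) and all 7282 GBRs (grey), at the summit (filled) and 2 kb to either side (hatched); bars start at 0 and error bars are 95% Wilson intervals. The GLI share of the 22 GBRs is 9.09% beside 20.8% of all GBRs, and the intervals of the 22 are wide.

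The same rule was applied to 24 other genes of the pathway and of the TALE class, chosen for their roles. Of these, 18 had a GBR (75%, beside 54.2% of protein-coding genes) and 6 had none. Among the enzymes and carriers of vitamin A metabolism, the retinol dehydrogenase gene Rdh10 had a GBR 687 bp before its TSS (log2 3.16), nearest to Rpl7, and Dhrs3, whose product turns retinaldehyde back into retinol, had one 245 bp before its TSS with a GLI match (log2 3.28). The retinol importer gene Stra6 had 5 GBRs, of which 2 were nearest to Stra6. The strongest of the 5 (log2 2.94) lay 15866 bp from a Stra6 TSS and nearest to Ccdc33. Aldh1a1, Aldh1a3 and Rbp4 had 0.

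Of the binding proteins of retinoic acid in the cell, Crabp2 had 6 GBRs, the strongest at a log2 fold enrichment of 4.15 but nearest to Hdgf, and Crabp1 had 2, the stronger nearest to Ireb2. Among receptor partners, Rxrb had 7 GBRs, of which the strongest, at rank 31 and a log2 fold enrichment of 4.86, lay 86184 bp from an Rxrb TSS and nearest to Brd2. Rxra had 0 GBRs, and Rxrg had 1 at 99182 bp from its TSS, nearest to Lrrc52. Nrip1, which encodes a corepressor that receptors recruit with ligand, had a GBR 203 bp before a TSS (log2 2.64).

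Among TALE genes, GBRs at a TSS with a GLI match were found at both Tgif genes, which encode repressors of the class. The Tgif2 GBR lay 10 bp before its TSS (log2 4.10) and the Tgif1 GBR 48 bp before its own (log2 3.78). Pknox2 had an intronic GBR 30027 bp past a TSS with a GLI match (log2 4.36, rank 110). Pbx2 had one 321 bp before a TSS (log2 3.43), without a GLI match. Each of Tgif1, Tgif2, Pknox2 and Pbx2 thus held a GBR stronger than either GBR of Meis2, in a list of single values without replicate error.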

How the data were processed

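GLI3 ChIP-seq was made from 2 ChIP replicates and 1 input library of forelimb buds. Per the submitters' processing notes reads were handled with Bowtie2 2.2.5 and build mm10, and the study called peaks with CisGenome. The list is attached to ChIP replicate 1 and was taken as the call from both replicates, which it does not state. The deposited list gives an FDR (a q-value) that the authors' caller computed. A log2 fold enrichment over input, its maximum within each peak, also comes from the authors. The deposited T statistic is a score by which the authors ranked peaks. The deposited −log10 of the smallest Poisson p-value stops at 100.

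From these values, membership was computed with the start sites of all GENCODE M21 transcripts, and promoters (2 kb before to 1 kb after, overlap of at least 1 bp), nearest genes and introns with the basic protein-coding ones. The mm10 genome (GRCm38.p6) supplied the sequence, and sequence and position counts leave out 5 peaks that lie on unplaced contigs. Of all peak ends, 0 lay beyond their chromosome. The member rule and the motif search were tested on simulated data. Python 3.11.15, pandas 2.3.3, statsmodels 0.14.6 and pysam 0.24.0 were used.

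Genes named were the 9 members, genes nearest to their peaks or to the nearest GBR outside, and a part of the 24 further genes. For further genes named that had a GBR, the strongest was described. Some of the 24 are counted but not reported here by name. Members and lists were chosen with earlier results of these data known. No test was run, since the list holds no value per library, and shares of all peaks, GBRs or genes serve as background. Wilson intervals at 95% cover counting error only. Alternatives changed the FDR, the distance, the start sites, the promoter and the motif search.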

Additional observations from a re-analysis of the deposited data

How the results depend on the processing

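No paired analysis was possible because neither replicate has a value of its own, and leaving out a replicate was not run for the same reason. Over 7 results, 30 alternatives were computed, of which 25 stayed within 1.5 times the count or within the interval of the value and 5 did not. The number of GBRs at the 9 genes, 22, became 56 with all listed peaks, which by construction includes the peaks at an FDR of 0.05 or more, and 36 with a distance of 200 kb, where the window is wider. At 200 kb Rara had 20 GBRs, Rarg 8, Cyp26b1 4 and Pbx3 1. Without the Rara locus, an alternative chosen after seeing the data, the number was 10. The share of GBRs with a GLI match, 9.09%, became 0.0% with the exact consensus. The median log2 fold enrichment, 2.82, became 2.21 with all listed peaks, which by construction adds weaker peaks. An FDR under 0.01 left 19 GBRs, a distance of 50 kb left 17 and the 5′ end alone left 20. Shares of peaks over small counts and a depth known only as a lower bound limit what can be said, and a peak that is not listed may be bound below detection.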
